A study of Mus musculus with 5 samples.

Results

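Macrophage and lysosome genes were followed in whole knee joints of mice lacking both epiphycan (Epyc) and biglycan (Bgn). The genes were chosen by name: 37 were listed, 36 had a probe set with that single symbol in the annotation of both array tables, and Timd4 had none. The probe set with the highest mean on the 5 arrays stood for its gene, and 12393 genes were read in this way. Of the 36 genes, 31 had a mean above the 40th percentile of all genes and entered the test with 7436 genes in all, while Siglec1, Msr1, Fcgr1, Trem2 and Marco lay below it. The mean signal of the dimmest member above this filter was 114 (Vsig4), and that of the brightest member below it was 91.1 (Msr1).

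Macrophages are long-lived or monocyte-derived phagocytes that clear dying cells, debris and microbes and digest them in lysosomes. In the knee they line the synovium, sit in fat and marrow, and share a precursor with the osteoclasts of bone. They recognise cargo through Fc receptors, which bind antibody-coated particles, and through scavenger receptors, which bind lipoproteins, sugars and modified proteins. Lysosomal cathepsins then cut the engulfed protein, and the iron of engulfed red cells is released by heme oxygenase and exported by ferroportin. Soluble biglycan is known to act on macrophages through Toll-like receptors.

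The double-null group was made of 3 pools and the wildtype group of 2. Each pool was hybridised to 1 Affymetrix array and held RNA from the tibio-femoral joints of 3 male mice, 6 joints in all. All animals were 3 months old and of a hybrid C57/Bl6:129 strain. The labels name no promoter or Cre driver for the double-null animals and no other agent for either group. The arrays came in a pair of tables that belong to different platform records: double-null pool 3 and wildtype pool 2 in one, here called array type A, and double-null pools 1 and 2 and wildtype pool 1 in the other, array type B. Double-null and wildtype arrays were compared within each table and in a fit with array type as a term.

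Signals ran from 0.0423 to 26173 on the 5 arrays, with a trimmed mean of 250.1 on each, and precision is limited by there being 5 arrays. Bgn had 3 probe sets, all lower in the double-null pools (log2 fold changes -3.48, -6.00 and -5.42, largest limma adjusted p = 0.0047 over 22626 probe sets). Epyc, with 1 dim probe set, read 10.8, 3.38 and 1.29 in double-null pools 1 to 3, against 91.2 and 78.8 in wildtype pools 1 and 2. Its log2 fold change was -1.64 with a limma adjusted p of 0.16 over the same probe sets, which is not under 0.05. The labelled tissue carried its own messages on every array: the cartilage collagen gene Col2a1 read at least 3731, the lubricin gene Prg4 at least 3324 and the bone sialoprotein gene Ibsp at least 2545. In whole tissue, fewer cells of a type and less RNA per cell cannot be told apart.

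No macrophage or lysosome gene differed between the genotypes at the threshold of adjusted p = 0.05. By limma with Benjamini-Hochberg adjustment over 7436 genes, 0 of 31 members passed, against 0.121% of all genes tested, and the members' adjusted p ran from 0.77 to 0.996. At an unadjusted p under 0.05 there were 2 members, Mrc1 higher (1 of 31, against 3.52% of all genes higher) and Fcgr2b lower (1 of 31, against 2.65% lower). The median log2 fold change of the 31 members, computed from log2(signal + 32) as double-null minus wildtype, was 0.02, and that of all genes tested was -0.01. Estimates were negative for 12 of 31 members (38.7%), against 52.1% of all genes tested. Adding 32 makes the change of a dim gene look smaller than it is.

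The intervals show how large a change these 5 arrays leave possible. The unadjusted 95% interval of the log2 fold change lay inside -1 to 1 for 31 of 31 members, with -0.83 as the lowest bound (Fcgr2b) and 0.83 as the highest (Mrc1). It held 0 for 29 of them. The intervals reached 0.25 to 0.56 to either side of the estimates, and an interval that holds 0 does not show that there was no change. An exact permutation test of a single gene has 10 arrangements of 2 against 3 arrays and cannot go below p = 0.1.

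**Figure D1:**
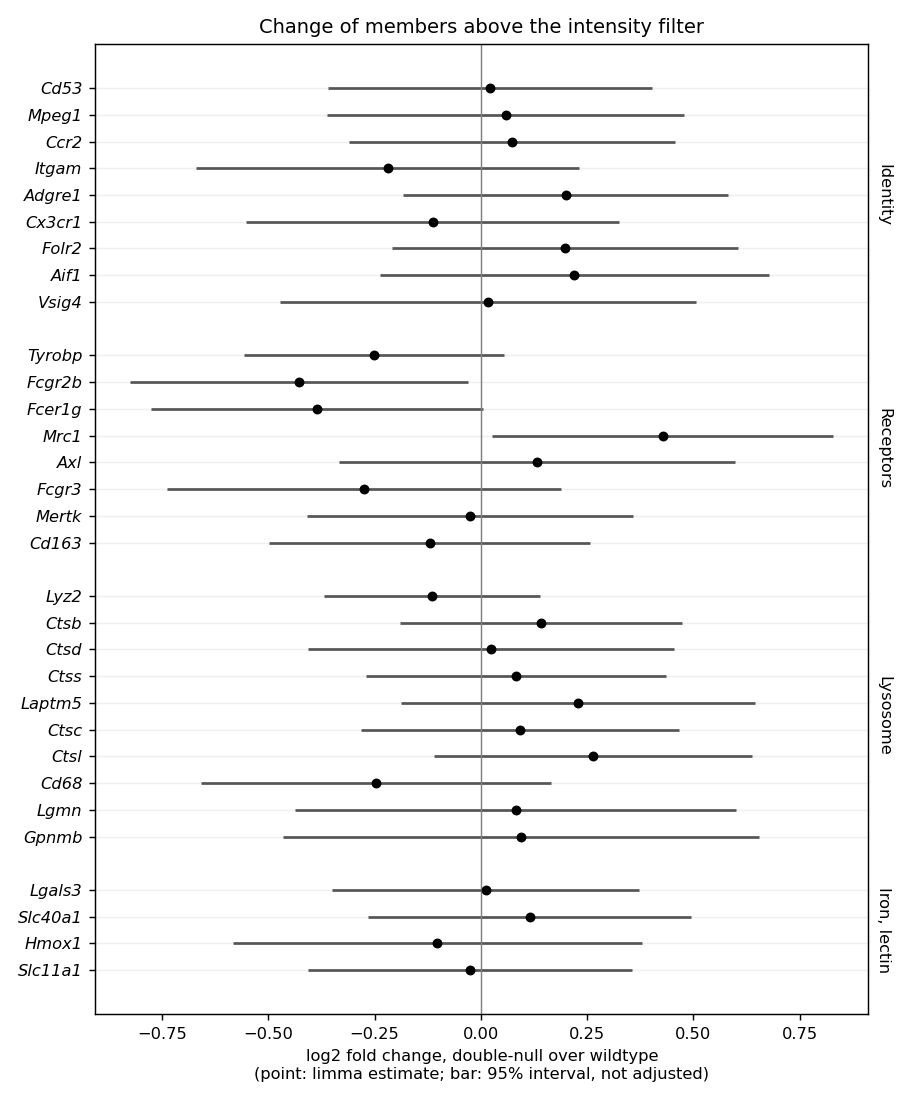
Log2 fold change, double-null over wildtype, of the 31 members above the intensity filter (horizontal axis), by role; points are limma estimates and bars unadjusted 95% intervals. Only the intervals of Mrc1, on the right, and Fcgr2b, on the left, leave out 0, and none reaches -1 or 1.

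The genes that mark macrophages as a cell type lay close together in the double-null and wildtype joints. Adgre1, encoding the F4/80 surface protein of mouse tissue macrophages, read 470.1, 506 and 495 in double-null pools 1 to 3, against 389 and 479 in wildtype pools 1 and 2. Its double-null arrays spanned a narrow range that overlapped wildtype pool 2, and the log2 fold change was 0.20 ± 0.17 (SE; limma adjusted p = 0.96, 95% interval -0.18 to 0.58). Mpeg1, encoding the pore-forming perforin-2 of phagocytes, read 2137, 1466 and 1203 in the double-null pools and 1412 and 1384 in the wildtype pools. Both wildtype values lay inside the double-null range, so the pools of 1 genotype differed more than the genotypes.

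Chemokine receptors and adhesion genes of monocytes behaved alike in having overlapping groups. Ccr2, the receptor that draws monocytes out of marrow, read 587, 488 and 611 in double-null pools 1 to 3 and 523 and 559 in wildtype pools 1 and 2 (log2 fold change 0.07). Cx3cr1, the fractalkine receptor of patrolling monocytes and lining macrophages, read 185, 215 and 264 in the double-null pools and 285 and 213 in the wildtype pools (-0.11). Itgam, encoding CD11b, the integrin chain of macrophages and neutrophils, read 453, 404 and 548 against 639.7 and 466 (-0.22). For Cx3cr1 and Itgam, wildtype pool 1 was the highest of the 5 arrays and wildtype pool 2 lay among the double-null pools.

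Markers of resident macrophages had small differences. Folr2, the folate receptor of resident tissue macrophages, read 159, 159.8 and 189 in double-null pools 1 to 3, against 159.8 and 138 in wildtype pools 1 and 2 (log2 fold change 0.20 ± 0.19, limma adjusted p = 0.98). On the normalised scale all 3 double-null values exceeded both wildtype values, while in the deposited signals double-null pool 1 lay just under wildtype pool 1. Vsig4, a complement receptor of resident macrophages, read 126, 135 and 83.2 against 105 and 119 (0.02). Siglec1, the sialic acid receptor sialoadhesin, read 13.2, 33.3 and 52.8 against 22.9 and 78.7, below the intensity filter. Of 27 control probe sets for Bacillus sequence, absent from mouse RNA, the highest signal on any array was 63.5, and Siglec1 exceeded the highest such control of its own array on 2 of 5 arrays.

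The remaining members of this role, Cd53 (a tetraspanin of white blood cells, 0.02) and Aif1 (the calcium-binding protein IBA1, 0.22), also had overlapping groups. The 9 tested identity genes had log2 fold changes from -0.22 (Itgam) to 0.22 (Aif1) with a median of 0.06, 7 of them positive, and 0 of 9 passed. The other 2 (22.2%) were negative, against 52.1% of all genes tested. Without the intensity filter on the list, the median over the 10 on the array was 0.04.

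**Figure D2:**
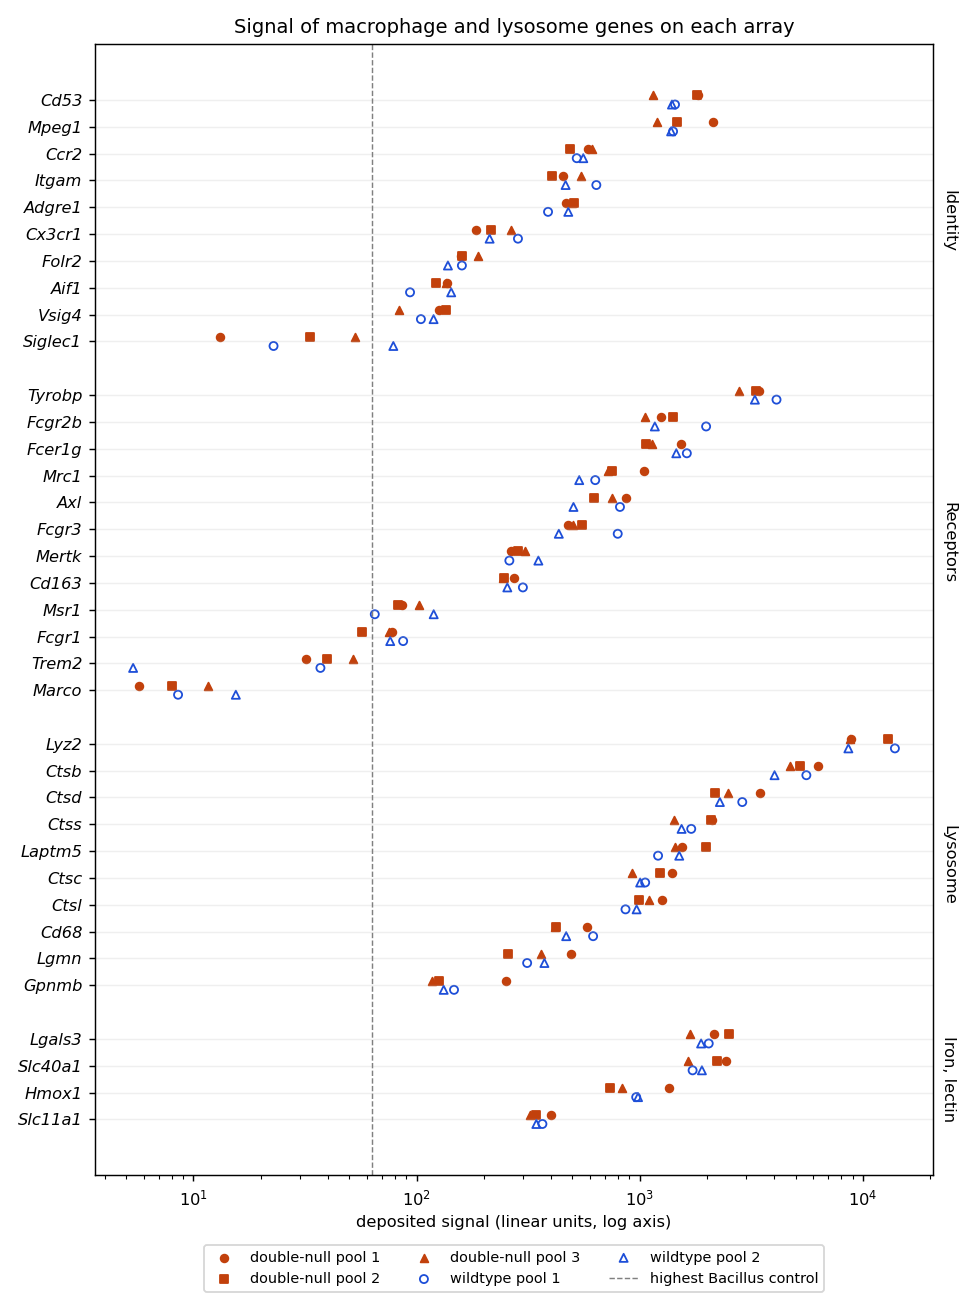
Deposited signal (horizontal log axis) of the 36 members on each array, by role, with filled orange symbols for the 3 double-null pools and open blue ones for the 2 wildtype pools. The dashed line is the highest Bacillus control on any array, 63.5; the groups overlap for nearly all genes, and Mrc1 and Ctsl are the members above the filter whose 3 double-null signals all lie right of both wildtype signals.

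Receptors for uptake held the largest differences of the set, in opposite directions. Mrc1, encoding the mannose receptor CD206 of alternatively activated and tissue macrophages, read 1041, 749 and 722 in double-null pools 1 to 3, against 632 and 536 in wildtype pools 1 and 2. All 3 double-null pools lay above both wildtype pools, and the log2 fold change was 0.43 ± 0.18 (SE; unadjusted p = 0.039, limma adjusted p = 0.77), or 1.34-fold. Each array type gave 0.43. The scavenger receptor of haemoglobin, Cd163, read 273, 246 and 244 against 299.8 and 255 (-0.12). Mrc1 and Cd163, often used together as markers of the same macrophage state, thus had estimates of opposite sign, neither past the threshold, and their difference was not tested.

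Fc receptors and their signalling adaptors all had negative estimates. Fcgr2b, the inhibitory receptor for IgG, read 1243, 1409 and 1061 in double-null pools 1 to 3, against 1986 and 1170.0 in wildtype pools 1 and 2 (log2 fold change -0.43 ± 0.18, unadjusted p = 0.037, limma adjusted p = 0.77). Wildtype pool 1 alone stood high, and wildtype pool 2 lay inside the double-null range. Its 3 other probe sets gave 0.08, -0.04 and -0.07, so the estimate rests on the brightest of 4 probe sets. Fcgr3, an activating receptor for IgG, was also highest in wildtype pool 1, with 475, 549 and 502 against 798 and 434 (-0.27 ± 0.21, adjusted p = 0.94). Unlike Fcgr2b, it was lowest of the 5 arrays in wildtype pool 2.

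Fcer1g and Tyrobp encode the common gamma chain and DAP12, adaptors that carry the activation motif for Fc and related receptors. Fcer1g read 1535, 1065 and 1141 in double-null pools 1 to 3, against 1628 and 1459.8 in wildtype pools 1 and 2 (log2 fold change -0.39 ± 0.18, unadjusted p = 0.052, limma adjusted p = 0.82). Tyrobp read 3436, 3308 and 2791 against 4107 and 3285 (-0.25 ± 0.14, adjusted p = 0.86). After normalisation all 3 double-null arrays lay below both wildtype arrays for these 2 genes, and in the deposited signals the groups overlapped, with double-null pool 1 above wildtype pool 2 for both and double-null pool 2 also above it for Tyrobp. On types A and B, Fcer1g was at -0.34 and -0.42 and Tyrobp at -0.29 and -0.22. In the RefSeq gene table Fcgr2b, Fcgr3, Fcgr4 and Fcer1g lie on the same stretch of chromosome 1. Fcgr4, which belongs to another list below, was at -0.03.

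The receptors for apoptotic cells gave no common direction. Axl, a receptor tyrosine kinase for Gas6-coated dying cells, read 866, 622 and 751 in double-null pools 1 to 3, against 816 and 505 in wildtype pools 1 and 2 (log2 fold change 0.13). Mertk, its relative on resting macrophages, read 266, 285 and 305 against 261 and 352 (-0.03). The groups overlapped for both.

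The dimmest receptors carry little information. Trem2, a lipid-sensing receptor that pairs with DAP12, read 31.8, 39.5 and 52.0 in double-null pools 1 to 3, against 37.1 and 5.37 in wildtype pools 1 and 2. It exceeded the highest Bacillus control of its own array on 2 of 5 arrays, double-null pools 1 and 3, and its second probe set gave 0.01 against 0.51 for the brightest. Marco, a scavenger receptor of marginal zone and lung macrophages, read at most 11.7 in the double-null and 15.5 in the wildtype pools, below the highest Bacillus control of every array. Msr1, scavenger receptor A, averaged 90.3 ± 10.7 (SD, n = 3) in the double-null and 92.2 ± 38.5 (n = 2) in the wildtype pools. Fcgr1, the high-affinity receptor for IgG, averaged 70.1 ± 11.3 and 81.7 ± 7.69. Of the 8 receptor genes above the filter 6 had negative estimates (75%, against 52.1% of all genes tested). The median of the 8 was -0.19, and 0 of 8 passed. Over all 12 on the array the median was -0.10.

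Among lysosomal genes 8 of 10 had positive estimates and 0 of 10 passed. The share with negative estimates was 20%, against 52.1% of all genes tested. Within type A 7 of the 10 were lower, and within type B 3 of the 10. Ctsl, encoding cathepsin L, read 1266, 994 and 1103 in double-null pools 1 to 3, against 864 and 969 in wildtype pools 1 and 2. The groups did not overlap, and the log2 fold change was 0.26 ± 0.17 (limma adjusted p = 0.90, 95% interval -0.11 to 0.64), with 0.20 and 0.32 on types A and B. Ctsb, encoding cathepsin B, read 6308, 5218 and 4705 against 5589 and 4025 (0.14), and its 3 other probe sets gave -0.05, 0.20 and 0.37. Cathepsins B, D and L are made by many cell types of the joint, not by macrophages alone.

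Cathepsins S and C, with a more haematopoietic pattern, stood close to 0. Ctss, the cathepsin that trims the class II invariant chain, read 2112, 2090.2 and 1421 in double-null pools 1 to 3, against 1703 and 1542 in wildtype pools 1 and 2 (log2 fold change 0.08). Ctsc, which activates serine proteases of granules, read 1402, 1239.7 and 926 against 1059 and 1006 (0.09). In both, double-null pools 1 and 2 were the highest arrays and double-null pool 3 the lowest. Of the lysosomal proteases without that pattern, the aspartic protease gene Ctsd was at 0.02 and the legumain gene Lgmn at 0.08.

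Lyz2 and Cd68 were the lysosomal members with negative estimates, whereas 7 of the 9 tested identity genes had positive ones. Cd68, a heavily glycosylated protein of the lysosomal membrane, read 580.5, 422 and 419 in double-null pools 1 to 3, against 619 and 469 in wildtype pools 1 and 2 (log2 fold change -0.25 ± 0.19, limma adjusted p = 0.94). Lyz2, encoding lysozyme of macrophages and neutrophils, read 8859, 12922 and 8808 against 13936 and 8622 (-0.11). Its near-identical paralog Lyz1 may share its probes. Deposited signals of 11 neutrophil markers summed to 88688 to 125689 in the double-null pools and 90985 to 142825 in the wildtype pools. This sum and Lyz2 both stood highest in wildtype pool 1 and next in double-null pool 2. The highest signal of any probe set had the same order at the top, with 26173 and 24381 on these arrays. These signals were not quantile normalised. The part of neutrophils or of array scale in the Lyz2 value was not tested.

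Laptm5, a lysosomal membrane protein of blood cells, shows how far the choice of probe set can matter. Its brightest probe set read 1542, 1976 and 1438 in double-null pools 1 to 3, against 1209.7 and 1505 in wildtype pools 1 and 2, a log2 fold change of 0.23. Its other probe sets gave -0.46 and -0.29. The Affymetrix suffix of each Laptm5 probe set, the brightest and the others, marks one that may also bind other transcripts. The same holds for the only probe set of Aif1. Of the 7 members above the filter with more than 1 probe set, 6 had probe sets of both signs, and Slc40a1 was the exception. The 10 lysosomal genes ran from -0.25 (Cd68) to 0.26 (Ctsl) with a median of 0.09. Gpnmb, a glycoprotein of lipid-laden macrophages and osteoclasts, was at 0.09, with double-null pool 1 at 251 and the other 4 arrays between 117 and 147.

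**Figure D3:**
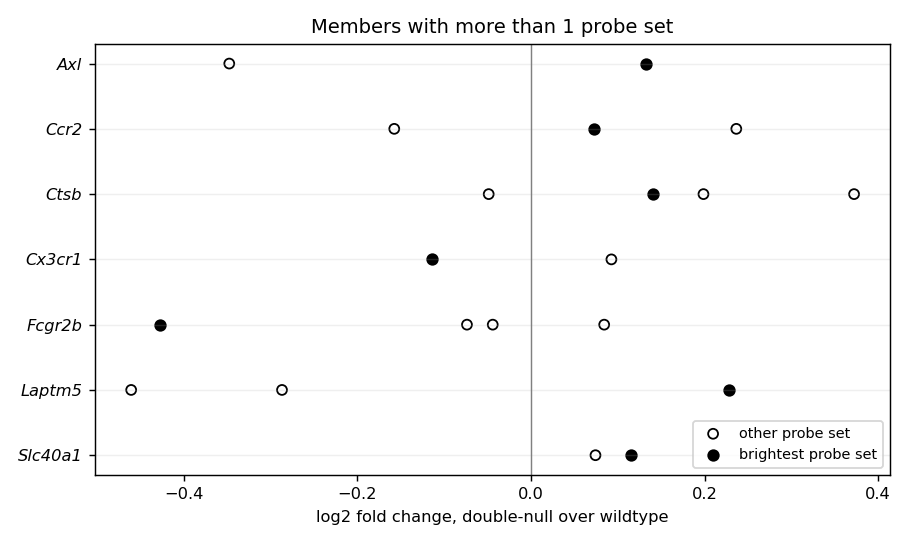
Log2 fold change, double-null over wildtype (horizontal axis), of each probe set of the 7 members above the filter with more than 1; filled points are the brightest probe sets used in the report. For Laptm5 the brightest is at 0.23 and the others at -0.46 and -0.29, and for Fcgr2b only the brightest, at -0.43, is far from 0.

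Genes of iron handling and the lectin Lgals3 showed overlapping groups. Hmox1, the enzyme that breaks down heme, read 1351, 740.0 and 834 in double-null pools 1 to 3, against 965 and 984 in wildtype pools 1 and 2 (log2 fold change -0.10). Slc40a1, the iron exporter ferroportin, read 2432, 2214 and 1643 against 1728 and 1902 (0.11), with 0.07 on its second probe set. Slc11a1, the metal transporter of the phagosome, read 399.9, 343 and 322 against 367 and 344 (-0.03). Lgals3, encoding galectin 3, was at 0.01. For all 4 the wildtype pools lay inside the range of the double-null pools, and their median was -0.01.

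The tables were then read apart. Array type A compares double-null pool 3 with wildtype pool 2, and array type B compares double-null pools 1 and 2 with wildtype pool 1. Type A has no replicate and so no test. Type B alone, fitted with limma on 1 residual degree of freedom, called 0 of 31 members, and its smallest adjusted p among them was 0.445 (Fcgr2b). Of the 31 members, 6 were higher on both types, against 22% of all genes tested, and 7 were lower on both, against 25.3%. The other 18 (58.1%) had opposite signs on the types, against 52.7% of all genes. The members' median was -0.09 within type A and 0.10 within type B.

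Higher on both were Mrc1, Ctsl, Ctsb, Adgre1, Folr2 and Ccr2. Lower on both were Fcer1g, Tyrobp, Fcgr2b, Cd163, Cd68, Lyz2 and Hmox1. Members whose sign depended on the type included Itgam, at 0.23 (A) and -0.56 (B), Fcgr3 at 0.20 and -0.63, Axl at 0.56 and -0.19, and Vsig4 at -0.42 and 0.34. By role, the medians on types A and B were 0.06 and 0.24 for identity genes, -0.10 and -0.21 for receptors, -0.08 and 0.20 for lysosomal genes, and -0.17 and 0.07 for iron handling and the lectin.

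**Figure D4:**
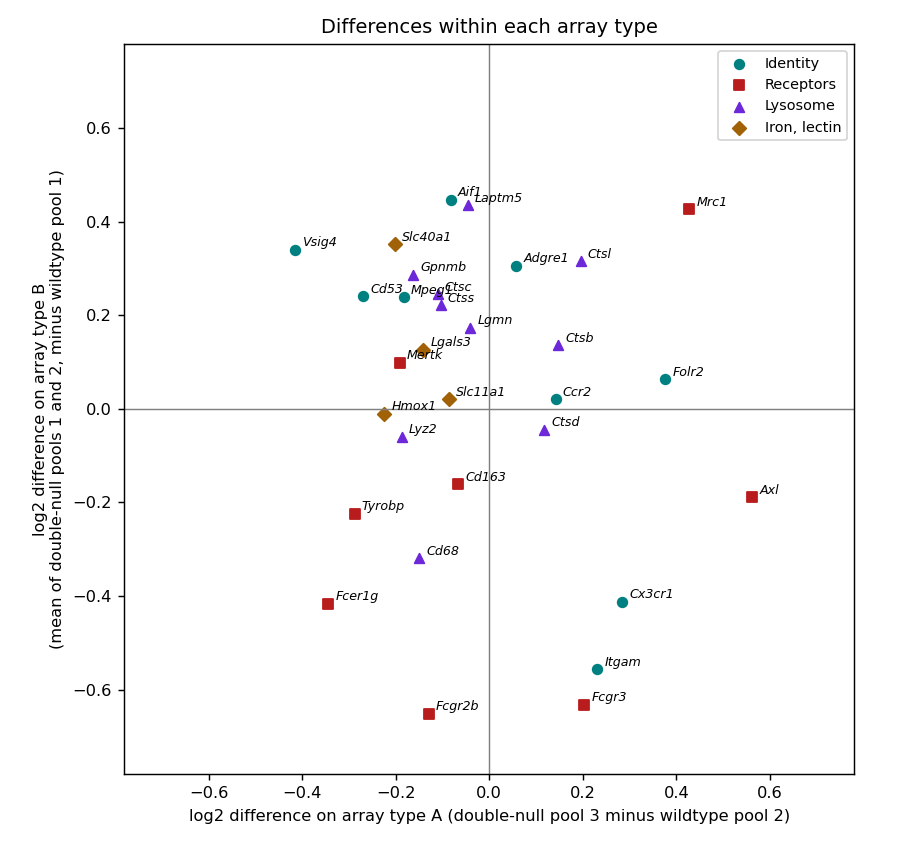
Log2 difference of each member above the filter on type A (horizontal axis, double-null pool 3 minus wildtype pool 2) and type B (vertical axis, mean of double-null pools 1 and 2 minus wildtype pool 1), by role. The 18 members to the upper left and lower right of the origin change sign between the types; Mrc1 is at 0.43 on both.

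Pools of 1 genotype often differed more than the genotypes did. For 28 of 31 members (90.3%) the size of the log2 fold change was under the larger of the spreads within a genotype, against 88.9% of all genes tested, and the exceptions were Folr2, Tyrobp and Ctsl. On the normalised scale 3 members (Mrc1, Ctsl and Folr2) had every double-null array above both wildtype arrays, against 9.47% of all genes, and 2 (Fcer1g and Tyrobp) had every one below, against 10.2%. In the deposited signals these were 2 members above, Mrc1 and Ctsl, against 8.46% of all genes, and 0 below, against 10.9%.

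The members moved with the table as well. In both genotypes 17 of 31 members (54.8%) read higher on type B arrays than on type A arrays, against 27.9% of all genes tested. They included 7 of the 10 lysosomal and 6 of the 8 receptor genes, and 2 of the 9 identity genes. Since each type held different pools, the type and the animals cannot be told apart, and the wildtype part of this comparison is 1 pool against 1.

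Promoter sequence was examined as a feature that the choice of members did not use. RefSeq promoters (GRCm38.p6, 250 bases before to 50 after the start) were listed for 29 of the 36 members. The letters GAGGAA, the core bound by the macrophage factor PU.1, or their reverse complement TTCCTC stood in 15 of 29 (51.7%), against 31.3% of 27025 genes in the table. The E-box CACGTG, the centre of the element through which TFEB acts on lysosomal genes, stood in 3 of 29 (10.3%), against 8.09%, and these 3, Ctsd, Ctsl and Lgmn, were among the 9 lysosomal members with a promoter listed. A match is a run of letters and not a bound site. Shown are the 100 bases before the start of Mrc1 and Fcgr2b, the members with the highest and the lowest tested estimate, and of Itgam and Ctsd, which hold these letters there. Each runs 5′ to 3′ along the gene, and capitals mark matches to either set of letters.
Mrc1, GRCm38.p6 chr2:14229314-14229413, plus strand: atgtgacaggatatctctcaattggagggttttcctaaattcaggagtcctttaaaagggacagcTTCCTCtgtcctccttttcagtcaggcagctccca
Fcgr2b, GRCm38.p6 chr1:170976072-170976171, minus strand: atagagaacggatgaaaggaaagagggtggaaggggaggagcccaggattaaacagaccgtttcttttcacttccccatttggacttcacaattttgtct
Itgam, GRCm38.p6 chr7:128062540-128062639, plus strand: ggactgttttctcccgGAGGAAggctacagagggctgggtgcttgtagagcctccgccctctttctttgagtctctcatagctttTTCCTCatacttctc
Ctsd, GRCm38.p6 chr7:142387828-142387927, minus strand: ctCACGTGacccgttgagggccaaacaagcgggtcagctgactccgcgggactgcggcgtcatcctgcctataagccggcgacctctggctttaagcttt
Mrc1 held 1 match in this stretch and Itgam held 2, all of the PU.1 core, while Ctsd held 1 E-box and Fcgr2b held none.

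Genes that direct macrophage development were read from a list of 14, of which 13 were on the array and 11 tested. None passed, 3 had an unadjusted p under 0.05, all lower (against 2.65% of all genes), and the median log2 fold change was -0.10. Spi1, encoding PU.1 itself, read 511, 422 and 549 in double-null pools 1 to 3, against 901 and 573 in wildtype pools 1 and 2 (-0.55 ± 0.22, limma adjusted p = 0.73). The double-null pools lay below both wildtype pools, yet the difference was -0.04 within type A and -0.93 within type B. Csf2ra, a chain of the GM-CSF receptor, read 606, 479 and 419 against 861 and 667 (-0.66 ± 0.18, adjusted p = 0.32), with a second, dim probe set at 0.22. Csf1r, the receptor for the growth factor that keeps macrophages alive, read 2756, 2939.7 and 2137 against 2906 and 2491 (-0.09), and Irf8 was at -0.13.

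Other genes of macrophages gave a similar picture. Of 26 listed, 22 were tested, 0 passed, 9 were positive and 13 negative, and the median was -0.05. Apoe, the lipid carrier secreted by macrophages and other cells, read 919, 766 and 913 in double-null pools 1 to 3, against 1323 and 1216 in wildtype pools 1 and 2 (log2 fold change -0.57 ± 0.17, unadjusted p = 0.0063, limma adjusted p = 0.42). Ncf4, a subunit of the phagocyte oxidase, read 813, 971 and 710.2 against 1217 and 1110.1 (-0.54 ± 0.18, adjusted p = 0.54). Both were lower on both array types without overlap between groups. On the normalised scale these were 2 of 22 genes (9.09%) with every double-null array below both wildtype arrays, against 10.2% of all genes. In 1 of 22 (4.55%) every double-null array lay above, against 9.47% of all genes. Pf4 was at 0.10 and Coro1a at -0.11.

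Lysosomal genes used by all cells were read from a list of 38, of which 29 were tested. Of these 0 passed, 19 were positive and 10 negative (34.5%, against 52.1% of all genes tested). The median was 0.08, close to the 0.09 of the lysosomal members. Scarb2, the receptor that carries glucocerebrosidase to lysosomes, read 728, 544 and 698 in double-null pools 1 to 3, against 399 and 565 in wildtype pools 1 and 2 (log2 fold change 0.48 ± 0.19, limma adjusted p = 0.72). The second Scarb2 probe set gave 0.09. Gaa, the lysosomal glucosidase, had 0.40 from the brightest of its probe sets and -0.14 from the second. Lamp1 was at -0.04 and Psap at 0.15.

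Other cells of the joint express some members, so their marker lists are given beside them. Osteoclast markers, 7 of 12 tested, were all negative with a median of -0.26 and 0 called. Of all genes tested, 52.1% were negative. Their level, the median over genes of the log2 value minus each gene's mean, was -0.13, -0.09 and -0.14 in double-null pools 1 to 3, against 0.33 in wildtype pool 1 and -0.11 in wildtype pool 2. Acp5, the acid phosphatase of osteoclasts, read 2109, 1779.7 and 1968 against 4377 and 2290.2 (-0.73, limma adjusted p = 0.33), Tcirg1 was at -0.38, Mmp9 at -0.28 and Ctsk at -0.15. Wildtype pool 1, high in these markers, also had the highest deposited signal of 9 of the 31 members. These were Fcgr2b, Fcgr3, Itgam, Cx3cr1, Tyrobp, Fcer1g, Cd163, Cd68 and Lyz2. The share of all genes with their highest signal on that array was not counted. On the normalised scale Lyz2 was highest in double-null pool 2 (13.45, against 13.44 in wildtype pool 1). The part of osteoclasts or neutrophils in these values was not tested.

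Neutrophil markers had a median of -0.10 over 11 tested genes, 1 positive and 10 negative (90.9%, against 52.1% of all genes tested), and 0 called. Elane was at -0.32 and Mmp8 at -0.40. S100a8 and S100a9, at 0.0048 and -0.0048, were the brightest genes read. Quantile normalisation set both to 14.26 or 14.29 on every array, which held their estimates near 0. Their deposited signals ran from 15226 to 26173. The level of the neutrophil list was -0.05, -0.01 and -0.04 in the double-null pools, against 0.16 and 0.02 in the wildtype pools. The B cell list, 8 tested, had a median of -0.26, 3 of them positive and 5 negative, with Cd22 at -0.42, Ms4a1 at -0.39, Cd79b at -0.27 and Cd79a at -0.36. Its level was -0.19, -0.19 and 0.15 in double-null pools 1 to 3, against 0.10 and 0.06 in wildtype pools 1 and 2, so double-null pool 3 was the highest array. The erythroid list, 6 tested, had a median of 0.01 (Slc4a1 0.22, Klf1 -0.10, Alas2 0.05), and the dendritic cell list, 3 tested, of -0.09 (Cd74 -0.36, Flt3 0.14, Itgax -0.09). The mast cell list, 3 tested, was at 0.19 (Kit 0.31, Cpa3 0.19, Hdc 0.06), and 0 genes were called in each of these lists. The level of the 31 members was 0.19, -0.03 and -0.12 in double-null pools 1 to 3, against -0.01 and -0.07 in wildtype pools 1 and 2, so double-null pool 1 was the highest and double-null pool 3 the lowest. The level of the 9 identity genes was 0.07, -0.02 and 0.09 in the double-null pools, against -0.04 and -0.08 in the wildtype pools. These levels did not overlap between the groups and were not tested. Summed deposited signals of the 10 identity genes on the array did overlap, at 6094, 5338 and 4732 against 5070 and 4976. Of the 9 genes only Folr2 (11.1%, against 9.47% of all genes) had every normalised double-null value above both wildtype values. Opposite signs on the array types were seen in 6 of the 9, against 52.7% of all genes.

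**Figure D5:**
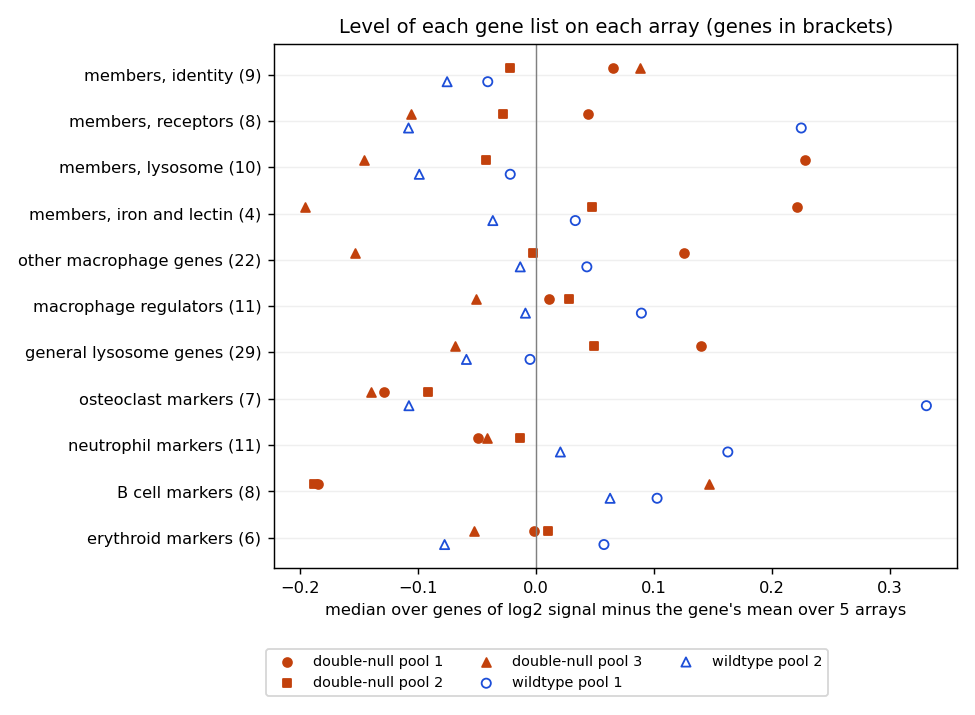
Level of each gene list on each array, as the median over its genes of the log2 value minus the gene's mean over 5 arrays (horizontal axis); filled orange symbols are double-null pools and open blue ones wildtype pools, and the number of genes is in brackets. For lysosomal members the double-null pools span the wildtype pools. Wildtype pool 1 is the array furthest right for osteoclast, neutrophil and receptor genes, macrophage regulators and erythroid markers.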

How the data were processed

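RNA of pooled knee joints carried a biotin label on Affymetrix arrays, per the labels' protocols. The authors deposited linear signal intensities per probe set from MAS5, per the submitters' processing notes. The sources used here do not give its version or a genome build. No detection calls were used, and background was judged from 27 Bacillus control probe sets.

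Of 22690 probe sets, 20393 had 1 symbol, 691 several and 1606 none. For 20364 the Entrez number was found in the GRCm38.p6 table and the symbol there was used, whether or not it differed. Quantile normalisation followed a log2 transform with a pseudocount of 32. Genes whose mean passed the 40th percentile (signal 98.5) went into limma 3.58.1 in R 4.3.3 (lmFit, eBayes with intensity trend, array type as a term, 2 residual and 9.68 prior degrees of freedom, two-sided, Benjamini-Hochberg). The scripts were tested on simulated data.

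Members and gene lists were chosen with earlier results of these data known, and the joint tissue markers and promoter motifs after the values were seen. Every member was named. From each other list the genes named were those past the threshold, the 2 with the smallest p and the 2 brightest. Fcgr4, as a neighbour of Fcgr2b, and Ibsp, as a bone marker, were named outside this rule, after their values were seen. Replicates were separate pools, per the labels. Scaling, pseudocount, filter, array-type term, replicate block, intensity trend, probe set choice and single pools were varied. Other probe sets were taken from a fit over all 22626 probe sets other than controls.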

Additional observations from a re-analysis of the deposited data

How the results depend on the processing

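Under 16 alternatives 0 members passed in each, and the smallest adjusted p of any member was 0.44, without double-null pool 3. Over all genes 9 were called, and 2 to 54 under the alternatives. The median over all members kept within the spread between pools, as did those of receptors and of iron handling. The median of identity genes was 0.11 with median centring, 0.24 on array type B alone and 0.17 with a replicate block in place of array type, and ran from 0.0039 to 0.24 without single pools. The median of lysosomal genes was 0.25 with the replicate block and ran from -0.075 to 0.20 without single pools.

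Of 31 members 11 kept 1 sign in every alternative run: Adgre1, Cd163, Cd68, Ctsb, Ctsl, Fcer1g, Fcgr2b, Folr2, Lyz2, Mrc1 and Tyrobp. Over all members the sign changed in 43 gene values and held in 449. With the deposited scaling Vsig4 was at -0.024, with median centring Slc11a1 was at 0.0079, and without the array-type term Slc11a1 was at 0.00012. On array type B alone Axl was at -0.19, Mertk at 0.10, Ctsd at -0.035 and Slc11a1 at 0.021. With the replicate block Ccr2 was at -0.019 and Slc11a1 at 0.067, and with the mean over probe sets Axl was at -0.11 and Laptm5 at -0.17. Without single pools, values ran from -0.082 to 0.45 for Aif1, -0.19 to 0.56 for Axl, -0.27 to 0.24 for Cd53, -0.11 to 0.25 for Ctsc, -0.14 to 0.21 for Ctsd, -0.10 to 0.22 for Ctss, -0.42 to 0.28 for Cx3cr1, -0.64 to 0.20 for Fcgr3, -0.16 to 0.29 for Gpnmb, -0.30 to 0.068 for Hmox1, -0.56 to 0.23 for Itgam, -0.046 to 0.43 for Laptm5, -0.14 to 0.13 for Lgals3, -0.15 to 0.28 for Lgmn, -0.19 to 0.099 for Mertk, -0.18 to 0.24 for Mpeg1, -0.087 to 0.021 for Slc11a1, -0.20 to 0.35 for Slc40a1, and -0.42 to 0.34 for Vsig4. Without wildtype pool 2, or without double-null pool 3, the contrast is that of type B, and without wildtype pool 1 it is that of type A. The cause of the changes was not tested.

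Deviations from the group means correlated at 0.0021 for replicate number 1 and at -0.18 for number 2. The deviations of the 2 wildtype arrays are exact opposites, and the arrays of number 2 differ in array type. These correlations therefore cannot decide whether the replicate numbers pair the arrays. The replicate block called 0 members.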
